A study of Homo sapiens with 4 samples.

Results

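The BCL2 family apoptosis regulators described here are 10 genes: the survival members BCL2, BCL2L1 (BCL-XL), MCL1 and BCL2A1 (BFL-1), and the death members BCL2L11 (BIM), BMF, PMAIP1 (NOXA), BBC3 (PUMA), BID and BAX. They were found through the platform's probe-to-gene table, and 9 of the 10 had at least 1 probe set (a group of array probes read as 1 value) that names no other gene. These 9 had 30 probe sets of the 54613 on the array, and 26 of the 30 reached the level minimum used here, a log2 intensity averaging 5 or more (intensity 32). All 9 were among the 13794 genes of 19775 that reached this minimum. BBC3 is named only on 1 probe set that also names 2 microRNA genes, so it has no value of its own and enters no count.

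RNA came from A375 and SK-MEL-28, established human melanoma cell lines that carry an activating BRAF mutation. Each line was transfected with a negative control siRNA or with an siRNA targeting ZIC5 (a zinc-finger factor), and RNA was collected 48 h later. This gave 4 groups, A375 control siRNA, A375 ZIC5 siRNA, SK-MEL-28 control siRNA and SK-MEL-28 ZIC5 siRNA, each with 1 Affymetrix array and no replicate, and the labels name 1 siRNA target without saying whether several siRNA sequences were used. The question posed by the design is how the transcriptome of each line differs once ZIC5 is targeted.

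Proteins of the BCL2 family decide whether the mitochondrial outer membrane is opened, which releases cytochrome c and starts the caspase cascade. Survival members hold the pore-forming members BAX and BAK in check, and the BH3-only members (BIM, BMF, NOXA, PUMA and BID) are sensors that bind the survival members or activate the pore formers. In melanocytes and melanoma, BCL2 and BCL2A1 are known targets of the lineage factor MITF, BIM and BMF are held down by ERK signalling, and NOXA and PUMA are known targets of stress factors such as ATF4. Much of the control of these proteins, of MCL1 and BIM above all, acts on protein stability, which an array does not read.

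Median intensity lay between 38.4 and 39.4 on the 4 arrays. The ZIC5 probe set read 16.8 and 14.1 in A375 cells and 21.4 and 15.5 in SK-MEL-28 cells (control siRNA, then ZIC5 siRNA), under the level minimum on every array, so the knockdown itself could not be read. Of 8 melanocyte markers 7 reached the level minimum. In A375 the defining pigment cell markers MLANA, PMEL, TYR and TYRP1 read under the array medians (intensities of 7.5 to 35.9). SOX10 read 895 and 1660 there, and S100B 413 and 334. In SK-MEL-28 the same 4 markers read from 1121 to 18212. Of 4 leukocyte markers 1 reached the level minimum, CD3E at 54.0 to 59.8 over the arrays, while PTPRC stayed under 32. Of 3 endothelial markers PECAM1 (56.9 to 88.3) and VWF (35.1 to 47.3) reached it, and CDH5 stayed under 32. The summed intensity was 80.5 to 93.7 for the leukocyte list and 108 to 131 for the endothelial list. Of 3 epithelial markers KRT8 and KRT18 reached the minimum and EPCAM stayed under 32. All 4 keratinocyte markers reached the minimum. KRT14 read 358 and 320 in A375 cells and 32.1 and 42.5 in SK-MEL-28 cells. KRT5, KRT1 and DSG3 did not share this gap: they read 22.4 to 48.9 over the arrays, with DSG3 higher in SK-MEL-28. KRT18 read 4176 and 4213 in A375.

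A difference below is log2 intensity with ZIC5 siRNA minus log2 intensity with control siRNA in the same line, read from each gene's brightest probe set (by its mean on the 4 arrays) unless another is named. With 1 array per group, no difference within a line has a replicate check or a p-value, and a 2-fold size (1 log2 unit) was used to describe genes. In A375, 3.89% of all genes passed this size upwards and 5.05% downwards, and in SK-MEL-28 these shares were 0.776% and 2.12%. Against that background, 2 of the 9 measured members were at least 2-fold higher in A375 (BCL2A1 and MCL1) and 1 was at least 2-fold lower (BID). In SK-MEL-28, 0 were 2-fold higher and BID was again 2-fold lower. In RNA from whole cultures, less RNA per cell and fewer cells that make it cannot be told apart.

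**Figure D1:**
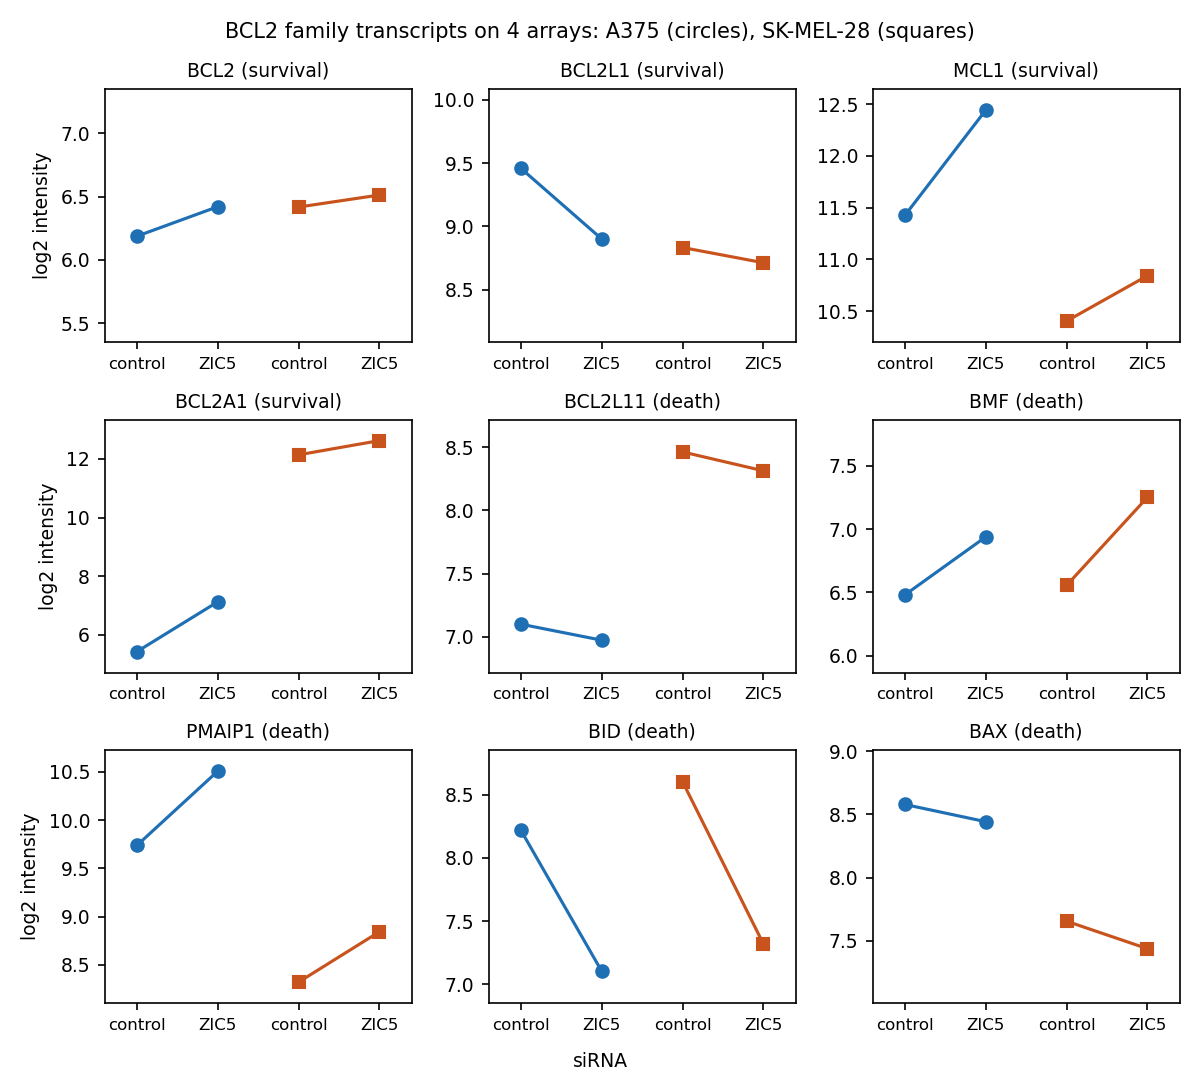
The log2 intensity (vertical axis, a different range in each panel) of 9 BCL2 family genes is plotted for 4 arrays, with A375 as circles, SK-MEL-28 as squares, and a line joining the control siRNA and ZIC5 siRNA arrays of a cell line; each point is 1 array, with no error bar because no group has a replicate. BID slopes down in both lines, MCL1, BMF and PMAIP1 slope up in both, and the SK-MEL-28 points of BCL2A1 lie far above those of A375.

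BCL2A1, the survival protein that binds BIM, BID and NOXA, had the largest positive siRNA difference among the members in A375, while in SK-MEL-28 BMF and PMAIP1 had larger ones. Its intensity in A375 was 43.2 under the control siRNA and 140 under the ZIC5 siRNA, a difference of 1.70 or 3.24-fold, higher than 99.1% of all genes in that line. The A375 control value lies near the array medians and not far above the level minimum. In SK-MEL-28 the BCL2A1 intensity was 4507 and 6306, a difference of 0.48, higher than 93.4% of all genes in that line. ZIC5 siRNA was therefore the higher array in both lines, and the A375 and SK-MEL-28 arrays did not overlap. BCL2A1 has a single probe set, so no second reading of the gene is available on these arrays.

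The 250 bases before the BCL2A1 start site are shown because this gene had the widest range of the family over the 4 arrays and because its window holds matches for both an ATF4-type element and an MITF-type element. The sequence is from RefSeq, assembly GRCh38.p14, chr15:79971197-79971446, minus strand, written 5′ to 3′ with the matches in capitals.

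BCL2A1: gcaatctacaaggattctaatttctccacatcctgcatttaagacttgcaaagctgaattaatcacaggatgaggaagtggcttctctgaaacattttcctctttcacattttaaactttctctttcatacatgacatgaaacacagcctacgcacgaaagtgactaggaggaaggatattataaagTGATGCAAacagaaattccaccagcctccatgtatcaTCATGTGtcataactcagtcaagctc

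The first match, TGATGCAA, fits the pattern TGATGNAA of combined C/EBP and ATF elements and starts at base -63 from the start site. The second, TCATGTG, is the extended E-box bound by MITF and starts at base -26. Searched on both strands, TGATGNAA was in 3.14% and TCATGTG in 2.52% of 35116 RefSeq windows of this length, and the matches do not overlap each other. Among the 9 members with a window in the table (all but MCL1), only BCL2A1 had either pattern. The patterns were chosen after the sequences had been seen, and a match is a description of the letters and not a binding site. The transcripts of both factors were measured. ATF4 read 3284 and 6583 in A375 cells and 2667 and 5731 in SK-MEL-28 cells. MITF read 357 and 235 in A375 cells and 6205 and 5089 in SK-MEL-28 cells, so on the ZIC5 siRNA arrays BCL2A1 was higher and MITF was lower in both lines. Their part in the BCL2A1 values was not tested.

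MCL1, a short-lived survival protein that binds BIM, NOXA and BAK, was higher with ZIC5 siRNA in both lines on each of the 5 probe sets that reached the level minimum, but the size depended on the probe set. On its highest probe set, 200798_x_at, intensities were 2751 and 5565 in A375 cells and 1356 and 1837 in SK-MEL-28 cells, differences of 1.02 and 0.44. On the next, 200797_s_at, they were 3219 and 3532 in A375 cells and 1308 and 1320 in SK-MEL-28 cells, differences of 0.13 and 0.01. The first of these has the suffix that marks probes shared with other sequences, and the mean over all 5 probe sets and the 1 under the level minimum was 0.73 in A375. Across the 5 probe sets the A375 differences ran from 0.13 to 1.44, with an SD of 0.52, and the SK-MEL-28 differences from 0.01 to 0.75. MCL1 was therefore past 2-fold in A375 on 2 of its 5 probe sets, 200798_x_at and 214056_at, and its 2-fold size was lost also when the arrays were centred on their medians or quantile normalised.

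BCL2L1, which encodes BCL-XL, was lower with ZIC5 siRNA. Its intensities were 703 and 478 in A375, a difference of -0.56, and 456 and 420 in SK-MEL-28, a difference of -0.12. The control array of A375 stood above the other 3 arrays, which lay between 420 and 478. In SK-MEL-28 all 4 probe sets were lower (-0.25 to -0.06), and in A375 3 of the 4 were lower (-0.56 to -0.42), the other being 0.02.

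BCL2, the founding survival member, read not far above the level minimum in both lines. Its highest probe set read 72.9 and 85.6 in A375 cells and 85.4 and 91.3 in SK-MEL-28 cells, differences of 0.23 and 0.09. The other probe set at the level minimum, 203685_at, read 61.2 and 31.8 in A375 cells and 93.3 and 95.9 in SK-MEL-28 cells, differences of -0.94 and 0.04. The direction for BCL2 in A375 therefore depends on the probe set, while in SK-MEL-28 the arrays were alike on both.

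BID, the BH3-only protein that caspase-8 cleaves to carry a death receptor signal to mitochondria, was the member with the lowest difference in each line. Its highest probe set read 298 under the control siRNA and 138 under the ZIC5 siRNA in A375, against 388 and 160 in SK-MEL-28, which is 2.16-fold and 2.43-fold lower. Both control arrays lay above both ZIC5 siRNA arrays. The other probe sets read 243 and 119 in A375 cells and 195 and 108 in SK-MEL-28 cells, and 109 and 47.7 in A375 cells and 132 and 55.4 in SK-MEL-28 cells. All 3 probe sets were lower in both lines, with differences of -1.19 to -1.04 in A375 and of -1.28 to -0.85 in SK-MEL-28. The A375 difference was lower than those of all but 3.79% of genes, and the SK-MEL-28 difference than those of all but 0.979%. At least 2-fold lower in both lines were 1.15% of all genes.

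The window before the first of the 5 BID start sites in the RefSeq table is shown for contrast with that of BCL2A1, since BID was the member that differed most in the opposite direction. It is GRCh38.p14, chr22:17774470-17774719, minus strand, with GGGCGG, the GC box read by SP1-type factors, in capitals on either strand.

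BID: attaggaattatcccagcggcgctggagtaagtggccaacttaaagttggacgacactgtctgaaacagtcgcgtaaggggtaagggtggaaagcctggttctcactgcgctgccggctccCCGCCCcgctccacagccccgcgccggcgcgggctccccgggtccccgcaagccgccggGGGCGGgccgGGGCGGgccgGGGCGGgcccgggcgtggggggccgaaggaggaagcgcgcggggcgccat

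This window is 72% G or C, against 38.8% for that of BCL2A1, and holds 4 GC boxes. A GC box is in 42.6% of all windows and in at least 1 window of 5 of the 9 members with a window (BCL2L11, BMF, PMAIP1, BID and BAX), so it does not set BID apart.

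PMAIP1, the BH3-only protein that binds MCL1 and BFL-1, was higher with ZIC5 siRNA in both lines. Its highest probe set read 855 and 1457 in A375 cells and 320 and 459 in SK-MEL-28 cells, differences of 0.77 and 0.52. The other read 407 and 636 in A375 cells and 167 and 228 in SK-MEL-28 cells, differences of 0.64 and 0.45. On each probe set both A375 arrays stood above both SK-MEL-28 arrays. BMF, a BH3-only protein tethered to myosin motors until released, had 1 probe set, which read 89.3 and 122.6 in A375 cells and 94.0 and 152 in SK-MEL-28 cells, differences of 0.46 and 0.70. For BMF the control arrays of the lines were alike and both ZIC5 siRNA arrays lay above them. In SK-MEL-28 the BMF difference was higher than those of 97.3% of genes, and in A375 than those of 83.1%.

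BCL2L11 encodes BIM, the BH3-only protein that binds every survival member and activates BAX. Its highest probe set read 137 and 126 in A375 cells and 352 and 318 in SK-MEL-28 cells, differences of -0.13 and -0.15. Of the 6 that reached the level minimum, 4 were higher with ZIC5 siRNA in A375 cells and 4 in SK-MEL-28 cells, with ranges of -0.13 to 0.84 and -0.21 to 0.53. No direction can be given for BCL2L11 as a gene. BAX, the pore former, read 382 and 348 in A375 cells and 202 and 173 in SK-MEL-28 cells, differences of -0.14 and -0.22, and its other probe set differed by -0.09 and -0.24. The probe set that names BBC3 with MIR3190 and MIR3191 read 87.3 and 149 in A375 cells and 74.1 and 108 in SK-MEL-28 cells, differences of 0.77 and 0.54 that cannot be assigned to 1 of the 3 genes.

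**Figure D2:**
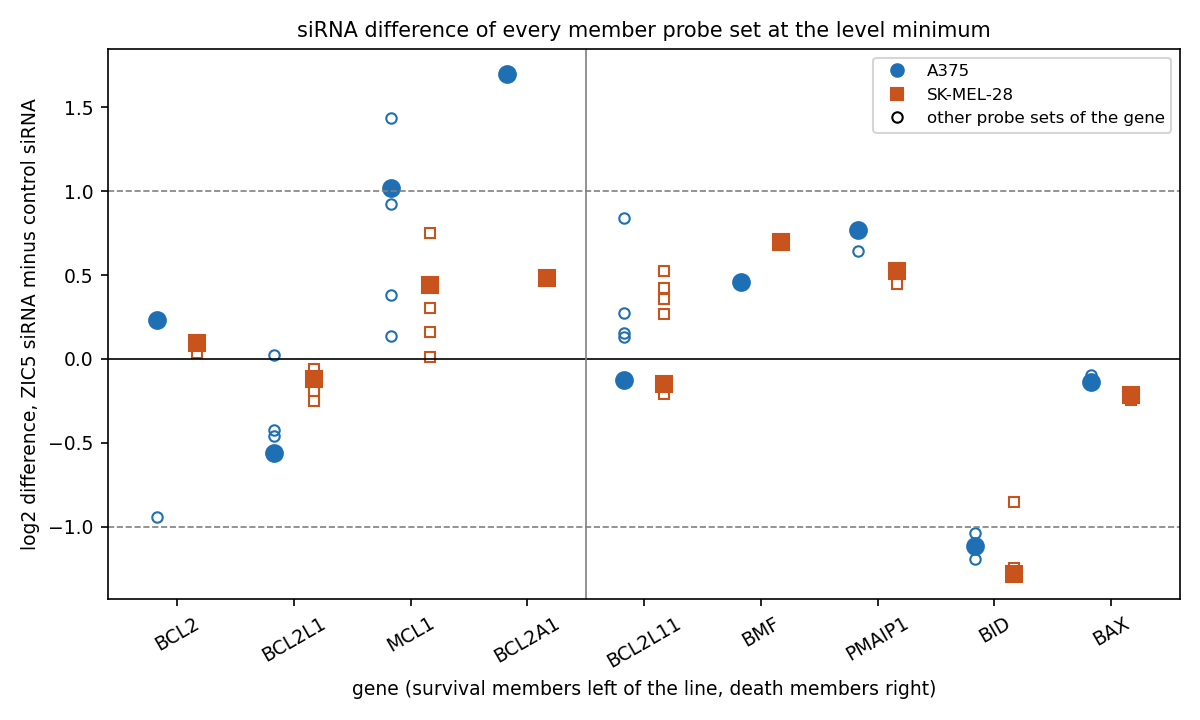
The log2 difference between ZIC5 siRNA and control siRNA (vertical axis) is plotted for all 26 member probe sets at the level minimum, by gene, with A375 as circles and SK-MEL-28 as squares; filled symbols are the probe set that represents the gene, open symbols its other probe sets, and dashed lines mark 2-fold. All 3 BID probe sets lie near or under the lower dashed line in both lines, while MCL1 and BCL2L11 probe sets spread widely and the BCL2 probe sets of A375 lie on both sides of 0.

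Set side by side, the survival members had a median siRNA difference of 0.62 in A375 (3 of 4 higher) and 0.27 in SK-MEL-28 (3 of 4 higher). The 5 measured death members had a median of -0.13 in A375 cells and -0.15 in SK-MEL-28 cells, with 2 higher and 3 lower in each line. The median over all genes was -0.01 in A375 cells and 0.00 in SK-MEL-28 cells, with an SD over genes of 0.60 and 0.39. The order of the classes rests on the choice of probe sets. With the mean of all probe sets of each gene, the medians were 0.26 for survival and 0.21 for death members in A375, against 0.19 and 0.29 in SK-MEL-28. With the second-highest probe set of each gene they were -0.16 and 0.28 in A375, while in SK-MEL-28 the survival median of 0.026 stayed above the death median of -0.21. The members of a class did not share a sign in either line: BCL2L1 was lower where MCL1 and BCL2A1 were higher, and BID was lower where PMAIP1 and BMF were higher.

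All 9 members had the same sign in both lines (5 higher and 4 lower), as did 64.0% of all genes, and the lines have separate control arrays. This count holds for the probe set that represents each gene: with the mean of all probe sets BCL2 had opposite signs (-0.21 in A375 cells, 0.12 in SK-MEL-28 cells), and with the second-highest probe set BCL2 (-0.94 and 0.04) and BCL2L11 (0.28 and -0.21) had opposite signs. The difference was larger in A375 for 5 members and larger in SK-MEL-28 for 4. A limma fit across all 13794 genes, with the line as a term, gave the siRNA effect over both lines. Replication comes from the lines alone. With a threshold of 0.05 on the Benjamini-Hochberg adjusted p, limma called 0 members and 0 genes in all (0% of those tested). At an unadjusted limma p under 0.05 it held 5 of the 9 members, against 13.2% of all genes. The 5 were BID (-1.20, SE 0.18), BCL2A1 (1.09, SE 0.35), MCL1 (0.73, SE 0.19), PMAIP1 (0.65, SE 0.17) and BMF (0.58, SE 0.18). Their limma adjusted p-values were 0.268, 0.363, 0.329, 0.336 and 0.361. The first is the lowest reached by any gene, but the adjustment ties genes of unlike unadjusted p, so it is not a rank. ATF4 shares it with an unadjusted limma p of 0.00066, against 0.0030 for BID. BCL2L1 (-0.34, SE 0.20), BAX (-0.18, SE 0.18), BCL2 (0.16, SE 0.16) and BCL2L11 (-0.14, SE 0.17) had limma adjusted p-values of 0.497 to 0.738. Fitted probe set by probe set over 30429 probe sets, limma again called 0, and all 3 BID probe sets and both PMAIP1 probe sets had an unadjusted p under 0.05, as did 2 of 5 for MCL1, against 13.9% of all probe sets.

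**Figure D3:**
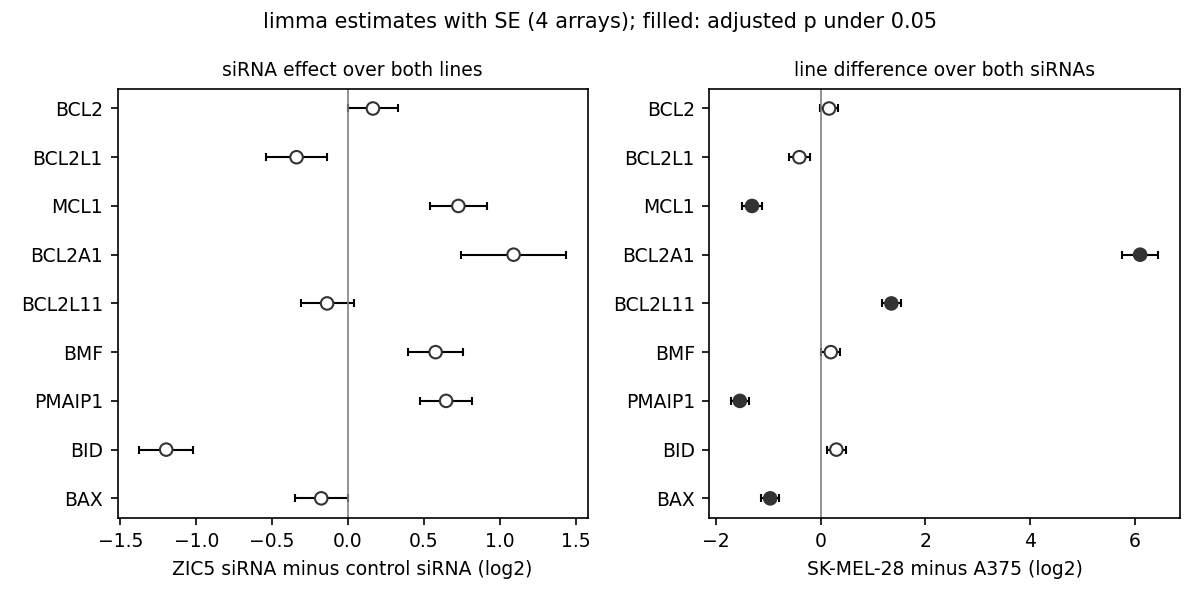
The limma estimate of each member (points) with its SE (bars, 4 arrays) is plotted for the siRNA effect over both lines (left, log2) and for the line difference over both siRNAs (right, log2, on a wider scale); filled points have an adjusted p under 0.05. In the left panel 0 of 9 points are filled and BID lies farthest below 0. In the right panel BCL2A1 and BCL2L11 are filled above 0, and MCL1, PMAIP1 and BAX are filled below 0.

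The lines themselves differed far more. Under control siRNA, 11.2% of all genes read 2-fold or more above A375 in SK-MEL-28 and 11.0% 2-fold or more below it, and of the 9 members 2 were higher (BCL2A1 and BCL2L11) and 2 lower (PMAIP1 and MCL1). In the same limma fit, with the siRNA as a term, 27.7% of all genes passed at an adjusted p under 0.05, and 5 of the 9 members passed, 2 of them higher and 3 lower in SK-MEL-28. A control array and a ZIC5 siRNA array of a line stand in for replicates here, and 1 culture of each line was read per siRNA.

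BCL2A1 was higher in SK-MEL-28 by 6.10 (SE 0.35, limma adjusted p = 0.0041). The difference was 6.70, or 104-fold, between the control arrays and 5.49 between the ZIC5 siRNA arrays. Melanocyte lineage markers were also higher in SK-MEL-28. The summed intensity of the 7 measured markers was 1751 and 2316 on the A375 arrays (control siRNA, then ZIC5 siRNA). On those of SK-MEL-28 it was 46522 and 43146, lower with ZIC5 siRNA where BCL2A1 was higher. All 7 were higher on both SK-MEL-28 arrays. Of these, MLANA and TYRP1 read under 32 in A375 and reached the level minimum through SK-MEL-28. The part of the markers in the BCL2A1 difference was not tested. BCL2, named above with BCL2A1 as a target of MITF, did not pass, at 0.16 (SE 0.16, limma adjusted p = 0.524). Its other probe set, 203685_at, was higher in SK-MEL-28 by 1.10 (SE 0.29) with a limma adjusted p of 0.0672 over probe sets. On 203685_at the difference was 0.61 between the control arrays and 1.59 between the ZIC5 siRNA arrays. The latter rests on an A375 reading of 31.8, under the level minimum.

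BCL2L11 was higher in SK-MEL-28 by 1.35 (SE 0.17, limma adjusted p = 0.016) on its highest probe set, 225606_at. That result rests on 1 probe set of 6: the other 5 differed by 0.06 to 0.64, and none of them passed in the limma fit over probe sets (adjusted p of 0.073 to 0.865), in which 23.9% of all probe sets passed. With the second-highest probe set of each gene, the limma adjusted p of BCL2L11 was 0.862.

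PMAIP1 was lower in SK-MEL-28 by a difference of -1.54 (SE 0.17, limma adjusted p = 0.0123), and both its probe sets passed. MCL1 was lower, at -1.31 (SE 0.19, limma adjusted p = 0.0196), and 4 of its 5 probe sets passed over probe sets, the other, 200796_s_at, having an adjusted p of 0.0855. Here the 2 brightest MCL1 probe sets gave alike values, -1.31 and -1.36, where their siRNA differences were far apart. BAX was lower, at -0.96 (SE 0.18, limma adjusted p = 0.03), on both its probe sets.

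The BAX window is shown as the third of the set because this pore former differed between the lines and because its start site region carries a repeated E-box. It is GRCh38.p14, chr19:48954625-48954874, plus strand, with CACGTG, the E-box read by MYC, MITF and related factors, in capitals.

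BAX: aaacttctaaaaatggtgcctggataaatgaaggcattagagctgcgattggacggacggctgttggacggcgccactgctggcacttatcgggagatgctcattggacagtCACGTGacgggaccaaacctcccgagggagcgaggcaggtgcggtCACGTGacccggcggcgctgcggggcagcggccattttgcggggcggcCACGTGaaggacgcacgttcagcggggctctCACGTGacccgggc

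CACGTG occurs 4 times in this window and in 6.34% of all windows at least once. Of the 9 members with a window 3 hold it, the others being BBC3 and BID (in 2 of its 5 windows). The transcripts of MYC and MITF were both higher in SK-MEL-28, the line with less BAX transcript: MYC read 182 and 235 in A375 cells and 1784 and 1739 in SK-MEL-28 cells. Their part in the BAX difference was not tested.

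The members with no line difference past the test were BCL2, BCL2L1 (-0.41, SE 0.20), BMF (0.19, SE 0.18) and BID (0.30, SE 0.18), with limma adjusted p-values of 0.524, 0.214, 0.479 and 0.289. For BID the line difference was smaller than the siRNA difference in each line, and its sign differed between probe sets.

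Other genes of the pathway were read from 6 lists of 61 genes, of which 54 were at the level minimum, and limma called 0 of the 54 for the siRNA effect over both lines (lowest adjusted p = 0.268, for ATF4), with 10 of the 54 at an unadjusted p under 0.05, against 13.2% of all genes. For the line difference limma called 16 of the 54 at an adjusted p under 0.05, 8 higher and 8 lower in SK-MEL-28, against 27.7% of all genes. Of 13 other BCL2 family genes, 6 were higher in A375 cells and 9 in SK-MEL-28 cells, with medians of -0.14 and 0.08. Only HRK, a BH3-only protein of neurons, passed 2-fold in either line: it read 42.8 and 51.5 in A375 cells and 113 and 286 in SK-MEL-28 cells, differences of 0.27 and 1.34. BAK1, the other pore former, differed by 0.39 and 0.32. BNIP3, a mitophagy receptor, differed by -0.67 and -0.30, and BNIP1 by -0.57 and -0.24, each with all its probe sets lower in both lines.

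Among 7 apoptosome and caspase genes the medians were 0.26 in A375 cells and -0.01 in SK-MEL-28 cells, and 0 passed 2-fold. APAF1, which forms the apoptosome with cytochrome c, was nearest to it, reading 138 and 274 in A375 cells and 181 and 255 in SK-MEL-28 cells, differences of 0.99 and 0.49. CASP2 differed by -0.88 and -0.65. Among 7 inhibitors of apoptosis and their antagonists, survivin (BIRC5), which also serves in chromosome segregation, was 2-fold lower in A375, from 1113 to 499, and read 1064 and 1164 in SK-MEL-28. BIRC2 differed by 0.41 in A375 cells and -0.43 in SK-MEL-28 cells. BIRC7, the melanoma inhibitor of apoptosis, differed by 0.44 and 0.41.

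Of 7 genes of the death receptor arm, 5 were higher in each line, with medians of 0.47 and 0.20. The receptor FAS read 204 and 485 in A375 cells and 48.0 and 55.0 in SK-MEL-28 cells, differences of 1.25 and 0.20. The receptor TNFRSF1A differed by 0.58 and 0.76. CFLAR, which encodes the caspase-8 inhibitor FLIP, differed by -0.69 and -0.72 on its highest probe set, and 8 of its 9 probe sets were lower in each line. Of the 16 line calls, 5 were among these 7 genes, 4 of them lower in SK-MEL-28 and CFLAR higher. Among those called lower, TNFRSF10A read 475 and 657 in A375 cells and 13.1 and 20.4 in SK-MEL-28 cells. It reached the level minimum through A375, so its line call follows in part from that filter. The other lists held 5 of 13 (other BCL2 family), 4 of 12 (transcription factors), 1 of 8 (turnover and tethering), 1 of 7 (inhibitors of apoptosis) and 0 of 7 (apoptosome and caspases).

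Among 12 transcription factors known to act on members, 9 were higher in A375 cells and 8 in SK-MEL-28 cells, with medians of 0.38 and 0.10. ATF4, with the intensities given above, passed 2-fold in both lines. DDIT3 (CHOP), a stress factor known to act on BIM and PUMA, read 214 and 1497 in A375 cells and 261 and 431 in SK-MEL-28 cells, differences of 2.80 and 0.72. FOXO3, which acts on BIM and PUMA, differed by 0.81 and 0.62 with all 3 probe sets higher in both lines. JUN differed by 0.90 in A375 cells and -0.47 in SK-MEL-28 cells. Among 8 turnover and tethering partners 0 passed 2-fold: FBXW7, a ubiquitin ligase subunit for MCL1, differed by 0.84 and 0.39, and BTRC by -0.45 and -0.35 on the brightest of its 3 probe sets, with the opposite sign on the other 2 in each line.

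**Figure D4:**
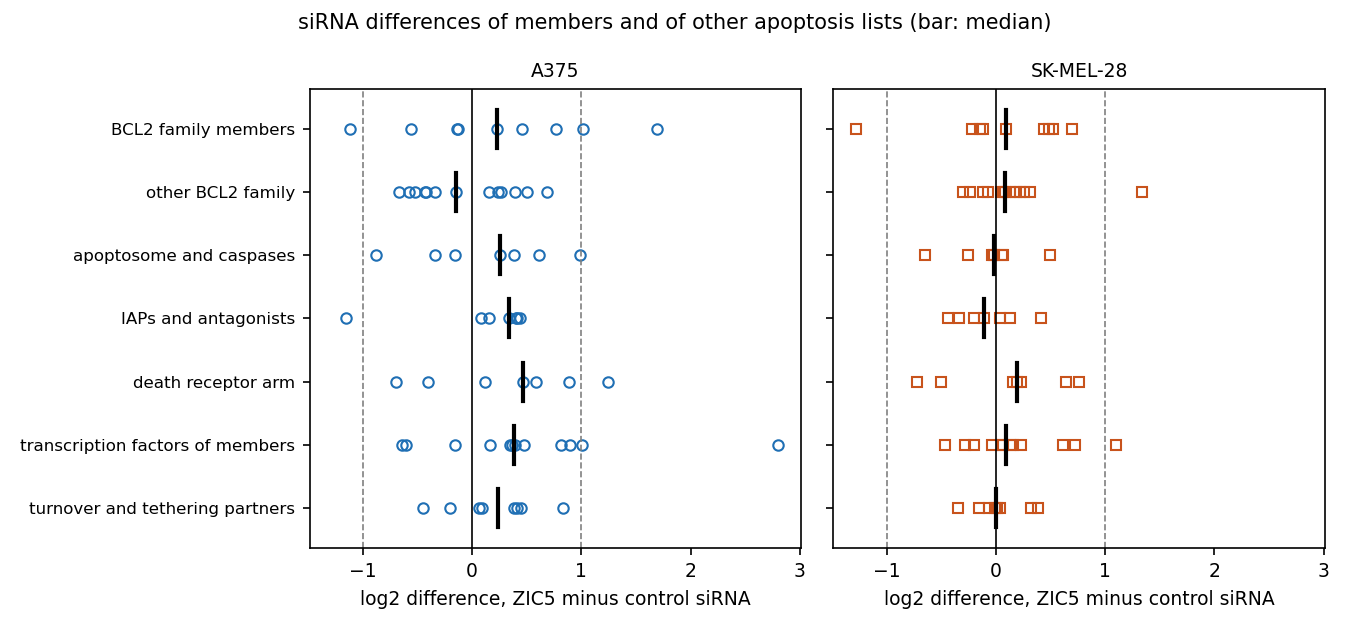
The log2 difference between ZIC5 siRNA and control siRNA (horizontal axis) is plotted for A375 (left) and SK-MEL-28 (right), 1 symbol per gene at the level minimum, for the 9 members and 6 other lists, with a black bar at each list's median and dashed lines at 2-fold. The spread of the members is wider than their median is far from 0, and the point farthest to the right in A375 is DDIT3 at 2.80.

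Genes whose pattern over the 4 arrays was nearest to that of a member were sought by Euclidean distance between log2 intensities after each gene was centred on its own mean, among 13793 other genes. For BCL2A1, the survival member with the widest range (7.19 log2 units), these were SNAI2, a neural crest and melanocyte transcription factor, at a distance of 0.25, the glycosyltransferase GALNT3 at 0.87 and LINC00520 at 0.90. SNAI2 read 21.6 and 76.9 in A375 cells and 2707 and 3021 in SK-MEL-28 cells. GALNT3 read 5.9 and 11.0 in A375 cells, under the level minimum, and 350 and 374 in SK-MEL-28 cells. LINC00520 read 29.5 and 159 in A375 cells and 4472 and 3237 in SK-MEL-28 cells, where BCL2A1 went the other way. On the A375 control array SNAI2 and LINC00520 were also under the level minimum. For PMAIP1, the death member with the widest range (2.19 log2 units), they were the tight junction scaffold TJP1 at 0.05, ZBTB6 at 0.09 and the ribosome assembly factor PDCD11 at 0.11. TJP1 read 926 and 1530 in A375 cells and 341 and 506 in SK-MEL-28 cells. ZBTB6 read 61.5 and 99.0 in A375 cells and 23.6 and 32.7 in SK-MEL-28 cells. Its SK-MEL-28 control value is under the level minimum. With 4 arrays such likeness describes these arrays only.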

How the data were processed

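The deposited intensity values, 1 for each probe set on each array, are the authors' RMA output. The submitters' processing notes name Affymetrix Expression Console with no version. Labelling started from 100 ng of RNA per the labels' protocols. The values run from 2.8 to 22531, a linear scale, and log2 was taken here. RMA shares 1 distribution over arrays and pulls low values together. Probe sets were named through the platform table: 41091 named 1 gene, 1801 several (not used for genes) and 11721 none. Entrez IDs matched RefSeq (GRCh38.p14) for 41037, and 0 symbols changed. Each gene was read from the probe set with the highest mean. The additive fit used lmFit and eBayes with trend (limma 3.58.1, R 4.3.3, 1 residual degree of freedom) with Benjamini-Hochberg adjustment over all genes, and was tested on simulated data. An interaction could not be fitted. Nothing says whether cultures were separate, and the p-values hold for these 4 arrays alone. The 1 residual degree of freedom of a gene is the gap between its siRNA differences in the lines. eBayes pools this with the variance over all genes (median prior degrees of freedom 2.85). The SEs and p-values therefore do not measure a spread between replicate arrays of a gene. The members, lists and tests were chosen with earlier results of these data known. Named genes are all members, list genes 2-fold different in either line, up to 2 more per list by mean absolute difference, and the 3 nearest genes. BAK1, MITF, MYC and TNFRSF10A fall outside it and were added with their values known. List genes without values are not analysed here. Alternatives were no filter, a minimum of 7, a floor of 5, quantile normalisation, median centring, other probe sets per gene and other variance models. The second-highest probe set and a fit over probe sets were added after seeing the data.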

Additional observations from a re-analysis of the deposited data

Results flagged for a closer look

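A probe set of BCL2, 203685_at, differed by -0.94 in A375 cells and by 0.04 in SK-MEL-28, opposite signs that lie 0.98 apart. The BCL2L1 probe set 206665_s_at had opposite signs with a gap of -0.08 (SK-MEL-28 difference minus A375 difference). Of the BCL2L11 probe sets, 1553088_a_at had opposite signs with a gap of -0.48 and 1558143_a_at with a gap of 0.47. Among the genes of the other lists that are named, BIRC2 had opposite signs with a gap of -0.85, BIRC5 with one of 1.29 and JUN with one of -1.37. With 1 array per group these differences between the lines were not tested. The probe set that names BBC3 together with MIR3190 and MIR3191 is outside the gene comparisons, and it was higher with ZIC5 siRNA by 0.77 in A375 cells and by 0.54 in SK-MEL-28.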

How the results depend on the processing

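No paired analysis was possible because each group had 1 array and the labels carry no replicate numbers, other than the reported fit itself, whose line term pairs the arrays of each line. Leaving out a replicate was likewise not possible. The 0 calls for the siRNA effect held under every alternative run, the lowest adjusted p of a member over them being 0.113 (BID). No called difference of a member reversed. The line difference of BCL2A1, MCL1, PMAIP1 and BAX passed under every alternative that gave a value, with limma adjusted p-values of at most 0.00672, 0.0324, 0.0184 and 0.0411. That of BCL2L11 passed under all but the second-highest probe set (0.862). With the mean of all probe sets BCL2L11 passed narrowly, at a limma adjusted p of 0.0493. Its difference between the control arrays was then 0.51 in place of 1.36.

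Counts of members at least 2-fold changed depended on scaling and on the probe set. Members 2-fold higher in A375 numbered 1 in place of 2 with median centring, quantile normalisation, the mean of all probe sets and the second-highest probe set. With the mean of all probe sets, 1 member was 2-fold higher and 1 lower between the lines in place of 2 and 2. With the second-highest probe set, 1 was 2-fold higher between the lines, and 0 were 2-fold lower in SK-MEL-28 (BID at -0.85). With plain _at probe sets only, 0 were 2-fold lower between the lines.

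The median of survival members in A375 was 0.26 with the mean of probe sets, 1.02 at a minimum of 7 (3 genes), 0.84 with plain _at probe sets and -0.16 with the second-highest. In SK-MEL-28 it was 0.026 with the second-highest, and between the lines -0.62 at a minimum of 7. The median of death members was 0.21 in A375 cells and 0.29 in SK-MEL-28 with the mean of probe sets, and 0.28 in A375 with the second-highest. Between the lines it was -0.27 at a minimum of 7, 0.27 with plain _at probe sets and -0.32 with the second-highest. The cause was not tested, except that fewer members enter at a minimum of 7 and fewer death members (3) with plain _at probe sets. All 4 survival members entered with plain _at probe sets, where MCL1 was read from another probe set (1.44 in place of 1.02 in A375).

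Over all genes, those 2-fold higher and lower were 340 and 442 in A375 cells and 48 and 157 in SK-MEL-28 with the mean of probe sets (537, 697, 107 and 292 as reported). At a minimum of 7, 444, 188 and 902 were lower in A375, in SK-MEL-28 and between the lines (1518 as reported), and 190 in SK-MEL-28 with the second-highest probe set. Among the probe sets that represent the members, the lowest reading was that of BCL2A1 on the A375 control array (43.2), on which its 3.24-fold and 104-fold differences rest, and precision is limited by having 1 array per group.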
